A study of Mus musculus with 15 samples.

Results

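This report compares the livers of mice fed a high-fat diet (HF) with those of mice under caloric restriction (CR) by the tri-methylation of histone H3 at lysine K4 (H3K4me3). The members were the 3 libraries labelled HF and the 3 labelled CR, 6 of the 15 libraries of the series, with 1 library per animal. All 6 came from females labelled C57BL/6 (C57BL/6J in the methods) that were 3 months old when the diets began and were fed for 10 months. Their labelled age is 12 months. The HF animals ate a high-fat feed freely. The CR animals received the standard feed in a smaller daily amount. Both groups shared the strain, sex and tissue handling. Chromatin was prepared from formalin-fixed, paraffin-embedded liver sections (PAT-ChIP), so each library holds all cell types of the section. The other 9 libraries, from a standard diet (SD), a yellow corn diet (YD) and a purple corn diet (RD), were used only to describe the same promoters in libraries that had not chosen them.

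H3K4me3 lies on the nucleosomes that flank the start sites of active and poised genes. It is deposited by the SET1 and MLL complexes, whose CXXC subunits bind unmethylated CpG dinucleotides, so promoters rich in CpG usually carry the mark and promoters poor in CpG carry it mainly where the gene is active. The liver stores and burns fuel. Excess fat is stored as triglyceride in hepatocytes, whereas restriction favours fatty acid oxidation, ketogenesis and gluconeogenesis, and the meal pattern is a strong time cue for the hepatic circadian clock.

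The unit of comparison was the promoter. A gene counted as marked in a library when an enriched region of that library, an island, lay within 1 kb of any of its annotated transcription start sites (TSSs). Of 21755 protein-coding genes, 653 had an island in at least 2 of 3 HF libraries and in no CR library, called HF-only here, and 42 had one in at least 2 of 3 CR libraries and in no HF library, called CR-only. Another 7041 were marked in all 6 libraries (shared promoters, 32.4% of the genes), and 9089 in none. These classes are counts and were not tested, because the smallest two-sided exact p for a single gene with 3 libraries per diet is 0.1.

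The sequences before the start sites of 3 one-diet promoters and 4 clock genes are shown because the classes differed in CpG content and because the clock genes are described at the shared promoters. Each line holds the 250 bases before a RefSeq transcript start on the strand of the gene, 5′ to 3′, in the build GRCm38.p6, the same build as mm10. In the first 3, capitals mark CG dinucleotides. Ssbp4 (chr8:70608315-70608564, minus strand) and Alb (chr5:90460620-90460869, plus strand) were HF-only, and Hamp (chr7:30944030-30944279, minus strand) was CR-only.
Ssbp4: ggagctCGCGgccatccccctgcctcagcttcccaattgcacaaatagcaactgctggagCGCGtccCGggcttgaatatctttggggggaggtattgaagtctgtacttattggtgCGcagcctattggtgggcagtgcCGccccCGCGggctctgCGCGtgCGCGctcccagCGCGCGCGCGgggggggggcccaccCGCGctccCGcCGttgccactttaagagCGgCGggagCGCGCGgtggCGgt
Alb: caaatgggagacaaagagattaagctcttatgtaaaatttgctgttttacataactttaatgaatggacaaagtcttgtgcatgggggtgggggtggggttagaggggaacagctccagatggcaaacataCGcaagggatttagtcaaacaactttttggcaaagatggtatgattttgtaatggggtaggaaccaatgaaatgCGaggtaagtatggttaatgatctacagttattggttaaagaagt
Hamp: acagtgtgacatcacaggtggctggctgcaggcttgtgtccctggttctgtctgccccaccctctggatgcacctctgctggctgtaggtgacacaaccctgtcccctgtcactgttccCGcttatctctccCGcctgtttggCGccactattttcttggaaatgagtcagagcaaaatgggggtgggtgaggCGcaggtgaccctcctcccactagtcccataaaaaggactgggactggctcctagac
The Ssbp4 stretch holds 28 CG dinucleotides, against 2 in that of Alb and 4 in that of Hamp. Islands covered the Ssbp4 stretch in 3 of 3 HF libraries and the Alb stretch in 1 of 3. At Hamp no island reached these bases, since the CR islands ended at position 30944000, just inside the gene.

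In the next 4, capitals mark the E-box CACGTG, which reads the same on both strands and is bound by the CLOCK and BMAL1 proteins. Per1 (chr11:69098699-69098948) and Arntl (chr7:113207215-113207464) lie on the plus strand, Bhlhe41 (chr6:145865421-145865670) and Per3 (chr4:151044666-151044915) on the minus strand.
Per1: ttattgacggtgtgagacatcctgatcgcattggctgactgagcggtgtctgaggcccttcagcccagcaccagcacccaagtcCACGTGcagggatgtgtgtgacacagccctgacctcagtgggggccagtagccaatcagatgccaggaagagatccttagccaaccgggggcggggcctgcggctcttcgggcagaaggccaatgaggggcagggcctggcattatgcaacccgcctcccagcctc
Bhlhe41: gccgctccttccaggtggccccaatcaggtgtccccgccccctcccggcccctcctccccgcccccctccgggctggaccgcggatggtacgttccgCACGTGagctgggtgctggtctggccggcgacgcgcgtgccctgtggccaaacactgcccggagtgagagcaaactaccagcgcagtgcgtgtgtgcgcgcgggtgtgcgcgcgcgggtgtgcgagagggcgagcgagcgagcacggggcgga
Per3: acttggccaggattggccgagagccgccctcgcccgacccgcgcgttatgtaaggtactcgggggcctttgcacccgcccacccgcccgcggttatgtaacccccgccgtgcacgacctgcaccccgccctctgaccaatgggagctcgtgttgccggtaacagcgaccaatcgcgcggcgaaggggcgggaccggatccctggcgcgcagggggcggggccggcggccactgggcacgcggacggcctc
Arntl: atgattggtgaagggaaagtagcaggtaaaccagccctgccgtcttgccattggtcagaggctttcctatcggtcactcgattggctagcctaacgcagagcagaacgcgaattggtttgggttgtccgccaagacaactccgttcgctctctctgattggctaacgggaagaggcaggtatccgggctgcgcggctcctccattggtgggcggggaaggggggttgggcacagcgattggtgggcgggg
Per1 and Bhlhe41 hold 1 match each, and Per3 and Arntl hold none in these bases. Of the 19 clock genes listed, 16 had such a stretch in the RefSeq table and 5 of them held the motif in at least 1 stretch (31.2%), against 1854 of 27025 genes with a stretch (6.86%). These matches are a description of letters and say nothing of binding in these livers.

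The 6 libraries differed in depth and in the length of their lists. Recovered reads were 9749186, 10176232 and 11548776 in HF_1 to HF_3, and 5589269, 9919067 and 8716790 in CR_1 to CR_3. The lists held 21280, 21310 and 13499 islands in the HF livers and 14446, 14727 and 33752 in the CR livers, so that the shortest list was HF_3 and the longest CR_3. The difference between the diet means was -2278.7 islands for HF minus CR (two-sided exact permutation test, p = 0.8, smallest possible p = 0.1), and it was +320 without HF_3 and +4109.83 without CR_3. Islands within 1 kb of a TSS made up 57.9%, 49.2% and 81.8% of the HF lists and 51.2%, 67.3% and 33.8% of the CR lists, a difference of 12.2 percentage points (exact permutation p = 0.5). CR_1 stood apart with the fewest reads and the fewest marked genes, CR_3 with the longest list and HF_1 with the most marked genes. The names of CR_1, CR_2, HF_2 and HF_3 have the form PATChIP, those of CR_3 and HF_1 the form ChIP. Within the PATChIP form, 2 libraries against 2, the difference was +2818 islands and 6.24 points of promoter share, and within the ChIP form, with 1 library each and no test, it was -12472 islands and 24.0 points.

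The HF livers had marked promoters at more protein-coding genes on average. The share of genes with an island was 54.6%, 47.6% and 51.5% in HF_1 to HF_3 and 35.5%, 46.5% and 48.2% in CR_1 to CR_3. The ranges overlapped, since CR_3 lay above HF_2. The means were 51.2 ± 3.53% in HF and 43.4 ± 6.92% in CR (standard deviation, n = 3 each), and the difference of 7.84 points did not pass the test (exact permutation p = 0.2). It was 3.88 points without CR_1, the shallowest library, 8.58 points among the 4 PATChIP libraries (exact permutation p = 0.333, with no smaller p possible for 2 and 2) and 6.36 points between the 2 ChIP libraries. At the shared promoters the median length covered by islands was 3200, 2200 and 2800 bp in HF and 2000, 2400 and 2600 bp in CR, which also overlapped (difference 400 bp, exact permutation p = 0.4, n = 3 each, and 300 bp within the PATChIP and 600 bp within the ChIP form).

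HF-only promoters outnumbered CR-only promoters, with 3.00% of all protein-coding genes against 0.193%. The stricter rule of 3 of 3 libraries against 0 of 3 gave 205 genes (0.942%) for HF and 2 genes (0.00919%) for CR. Single libraries set much of these counts. Of the 653 HF-only genes, 378 were marked in HF_1 and HF_3 alone, 58 in HF_1 and HF_2, 12 in HF_2 and HF_3, and 205 in all 3. HF_1 marked 641 of them and HF_2 only 275. All 42 CR-only genes were marked in CR_3, 29 in CR_2 and 15 in CR_1. Without HF_1 the counts were 217 HF-only and 130 CR-only genes, without HF_3 263 and 58, without CR_2 951 and 15, and without CR_3 1088 and 2. HF-only genes stayed the larger class in each of the 15 ways of counting that were tried. Within the PATChIP form of name, 2 libraries against 2, the counts were 467 and 27, of which 217 and 2 were among the 653 and the 42.

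**Figure D1:**
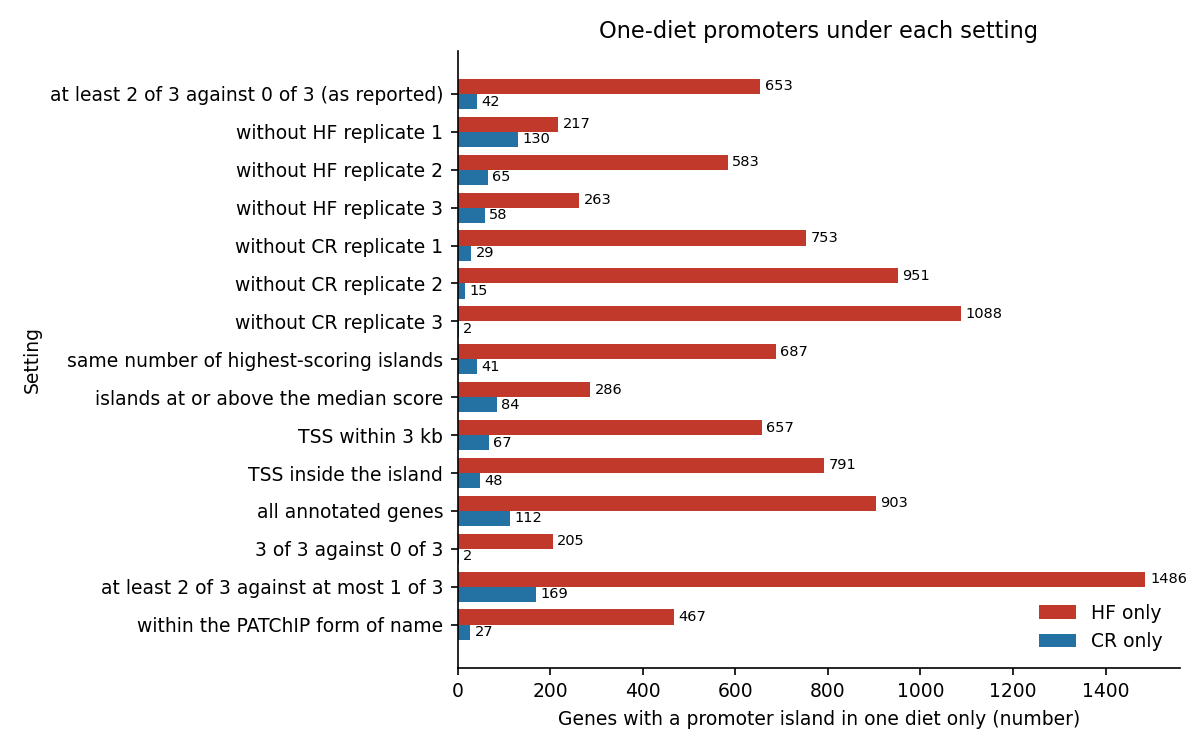
Number of protein-coding genes (all annotated genes in 1 setting) with a promoter island in one diet only, HF in red and CR in blue, under the reported rule and 14 other settings. HF-only counts range from 205 to 1486 and CR-only counts from 2 to 169, and the red bar is the longer in every setting.

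One-diet islands stood lower within their own lists than shared promoters. The class rule favours this, since a shared promoter had to pass the caller in all 6 libraries. The median HF-only island stood at percentile 34.1 of its list by score and covered 1600 bp, the median CR-only island at percentile 39.0 with 1600 bp, and the median shared promoter at percentile 81.5 with 2400 bp. By library the HF-only medians were 43.4, 32.7 and 24.9 in HF_1 to HF_3. The CR-only medians were 29.9, 30.4 and 58.1 in CR_1 to CR_3, so in CR_3 these islands stood above the middle of the list. The 2 classes differed in sequence, which the rule had not used. The measure was the highest count of CG dinucleotides in the 300 bp around a TSS of the gene. Its median was 21 over HF-only genes (quartiles 13 and 31) and 4 over CR-only genes (quartiles 2 and 13.25). It was 28 over shared genes, 5 over genes with no island and 18 over all genes. The CR-only class was mixed by library. Counts ran from 1 (Olfr57) to 5 (Oscar) over the 13 genes marked in CR_1 and CR_3 alone. They ran from 0 (Cyp2c54) to 49 (Wnt5b) over the 27 marked in CR_2 and CR_3 alone. Olfactory and vomeronasal receptor genes, which the liver is not known to use, made up 10 of the 42 CR-only genes and 2 of the 653 HF-only genes, beside 1466 of all 21755 protein-coding genes and 1272 of those with no island in the 6 libraries. Of the HF-only genes, 77 shared an island with another protein-coding gene, so that their islands cannot be told apart.

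In the standard diet livers, which had no part in the rule, both classes were mostly without an island. HF-only genes were marked at 16.5%, 18.8% and 7.50% in SD_1 to SD_3, and CR-only genes at 16.7%, 11.9% and 11.9%. Over all protein-coding genes the shares were 43.1%, 43.0% and 32.7%, and over genes with no island in the 6 libraries 0.880%, 0.561% and 0.264%. The first of these sets includes the 7041 shared genes. Both classes were chosen for having no island in 1 diet, so a share below that of all genes follows in part from the rule. In the YD livers HF-only genes were marked at 1.53% to 3.06% and in the RD livers at 3.06% to 6.58%. CR-only genes reached 23.8% in RD_2, whose list of 32131 islands was the second longest of the series.

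**Figure D2:**
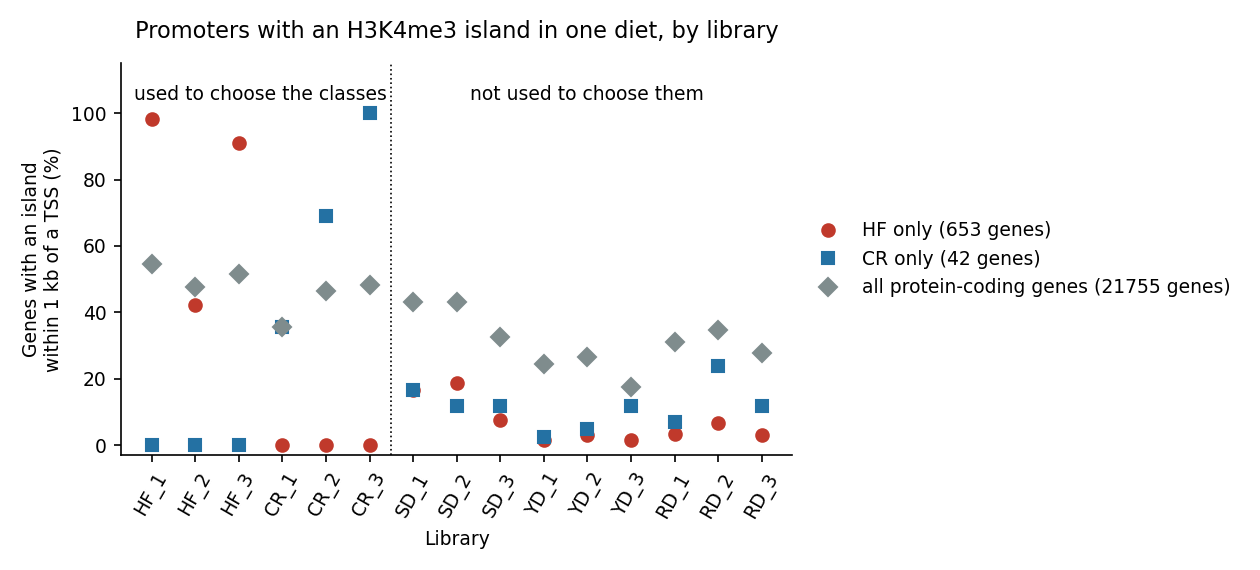
Percent of HF-only genes (red circles), CR-only genes (blue squares) and all protein-coding genes (grey diamonds) with an island within 1 kb of a TSS in each of the 15 libraries, where the 6 libraries left of the dotted line chose the classes. In the other 9 libraries the HF-only share lies between 1.53% and 18.8% and below the grey diamond of the same library. The grey diamonds include the 7041 genes marked in all 6 libraries that chose the classes.

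Among the 205 strict HF-only genes, 9 of the 10 with the largest mean covered length are described here. Covered length is the sum over all islands within 1 kb of any TSS of the gene, so it can join separate islands. Ssbp4, a single-stranded DNA-binding protein gene (islands within chr8:70606201-70612200), had 5400, 2800 and 6000 bp covered in HF_1 to HF_3 and no island in any CR library. Alb, which encodes albumin, the main plasma protein (chr5:90460601-90466000), had 2800, 2200 and 5400 bp in HF and none in CR, although the hepatocyte marker genes as a list were marked in both diets. Alb was marked in 1 SD, 3 YD and 1 RD library, so its promoter was not bare outside the HF group. Dio1, the deiodinase that activates thyroid hormone (chr4:107302601-107307600), had 2800, 2800 and 4600 bp in HF, and its islands stood high in those lists, at percentiles 89.5, 88.7 and 94.6. Dio1 was also marked in 1 SD, 3 YD and 2 RD libraries. The other 6 were Ptpre, a receptor-type tyrosine phosphatase, Arhgap27 and Sipa1, GTPase-activating proteins, Ccdc114, a ciliary dynein docking protein, Tmcc2, a membrane protein of the endoplasmic reticulum, and Cotl1, an actin-binding protein. Their covered lengths ran from 1200 bp (Sipa1, HF_2) to 9000 bp (Ptpre, HF_3). The islands of Ptpre (chr7:135537201-135656400), Arhgap27 (chr11:103343601-103365000) and Tmcc2 (chr1:132365201-132392200) lay within regions much longer than the covered length. Ptpre, Arhgap27 and Tmcc2 had no island in any SD, YD or RD library.

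The 2 strict CR-only genes were Gsta4 and Ank1. Gsta4, a glutathione transferase that detoxifies products of lipid peroxidation (chr9:78191801-78193800), had 600, 1800 and 1800 bp in CR_1 to CR_3 and was marked in no other library of the series. Ank1, ankyrin of the red cell membrane skeleton (chr8:23095401-23096000), had 600, 400 and 600 bp in CR. It was marked in 2 SD, 3 YD and 3 RD libraries as well, so it lacked an island in the 3 HF libraries and 1 SD library. A TSS lay inside the island in fewer CR libraries, 1 for Gsta4 and none for Ank1.

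On the pathway lists a single gene was CR-only, Cyp4a10. This gene, a fatty acid omega-hydroxylase under control of PPAR-alpha (chr4:115517801-115519800), had 2000 bp in CR_2 and 800 bp in CR_3 and no island in CR_1 or in any HF library. The other 6 CR-only genes given here were chosen after their values were seen. Hamp, the iron hormone hepcidin (chr7:30941801-30944000), had 1800 bp in both CR_2 and CR_3. Cyp2c54, a cytochrome P450, had 3200 and 1800 bp, Ugt1a9, a glucuronosyltransferase, 1800 and 3200 bp, and Ces1b, a carboxylesterase, 2000 bp in each. Aldh1a7, an aldehyde dehydrogenase, had 1000 and 2600 bp and Etnppl, the phospholyase that breaks down phosphoethanolamine, 1600 and 2000 bp. None of these 7 had an island in CR_1, the library with the fewest reads.

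Among the 12 pathway lists, HF-only genes were found in 4 and a CR-only gene in 1, where 3.00% of all protein-coding genes were HF-only and 0.193% CR-only. Of 23 genes of inflammation and the acute phase, 3 were HF-only, namely Lcn2, the iron-sequestering lipocalin, Il1b, the cytokine interleukin-1β, and Tlr2, a receptor for bacterial lipoproteins. Lcn2 (chr2:32385001-32388200) had 2000 bp in HF_1 and 3200 bp in HF_3, at percentiles 74.7 and 72.4 of the lists. Il1b had 1400 and 1800 bp at percentiles 17.6 and 27.2. Tlr2 had 2600 and 1000 bp at percentiles 57.2 and 4.04. In HF_2 all 3 were without an island. The list as a whole had 15, 10 and 15 marked genes in HF and 7, 11 and 10 in CR, so HF_2 lay within the CR range.

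The other 3 lists held 1 HF-only gene each, near what 3.00% of their 18 to 35 genes would give. Of 35 genes of lipid synthesis and storage it was Fabp4, the fatty acid-binding protein of adipocytes and macrophages, with 2800 bp in HF_1, none in HF_2 and 2400 bp in HF_3. Of 27 genes of glucose metabolism it was Gckr, the inhibitor of glucokinase (chr5:31293601-31298800), with 4200 bp in HF_1 and 3800 bp in HF_3. At a distance of 3 kb Gckr was marked in as many CR as HF libraries. Of 18 genes of endoplasmic reticulum stress it was Chac1, a glutathione-degrading enzyme induced by ATF4, with 600 and 1800 bp in HF_1 and HF_3. Of 34 genes of fatty acid oxidation and ketogenesis none was HF-only and Cyp4a10 was CR-only. No gene of cholesterol synthesis and export, bile acids, insulin and growth hormone, nutrient sensing, the circadian clock, xenobiotic metabolism or the H3K4 methylation enzymes was in either class. All 17 H3K4 methylation enzymes were marked in each of the 6 libraries.

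Hepatocyte markers were marked in both diets. All 14 had an island in each HF library, and 12, 13 and 13 in CR_1 to CR_3. On average more endothelial, macrophage and stellate cell markers were marked in the HF livers, and most of all in HF_1. Of 13 sinusoidal endothelial markers, 12, 7 and 9 were marked in HF_1 to HF_3 and 3, 2 and 7 in CR_1 to CR_3. HF_2 and CR_3 met at 7. In SD_1 to SD_3, 9, 2 and 4 of the 13 were marked, so SD_1 equalled HF_3. Pecam1, Lyve1, Cdh5 and Fcgr2b, all genes of endothelial surface proteins, were HF-only, 4 of the 13 beside 3.00% of all protein-coding genes. Cdh5, VE-cadherin, had 1600, 1000 and 2200 bp in the 3 HF libraries, whereas the other 3 were marked in HF_1 and HF_3 alone. Fcgr2b, an Fc receptor of liver sinusoids, was the widest with 5800 and 4200 bp. In bulk tissue a larger number of cells of a type and more of the mark per cell cannot be told apart. Nor can either be told apart from a library in which more promoters of any kind pass the caller's threshold. The share of all protein-coding genes marked was 54.6%, 47.6% and 51.5% in HF_1 to HF_3 and 35.5%, 46.5% and 48.2% in CR_1 to CR_3.

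Of 13 Kupffer cell and macrophage markers, 9, 0 and 2 were marked in HF and 2, 0 and 0 in CR, so that this list rested on HF_1. Clec4f, the Kupffer cell lectin, was HF-only, with 1800 bp in HF_1 and 3000 bp in HF_3. Of 14 stellate cell and fibroblast markers, 7, 1 and 2 were marked in HF and 0, 0 and 1 in CR. Of 8 cholangiocyte markers the counts were 2, 1 and 2 in HF and 1, 3 and 2 in CR. Of 10 lymphocyte markers, 1 was marked in HF_1 and in HF_3, Lck, a T cell kinase, and none in the other 4 libraries. None of 6 adipocyte markers had an island in any of the 6 libraries, and Adipoq and Lep were among them. In HF_1 to HF_3, 641, 275 and 595 of the HF-only genes were marked. The endothelial counts had the same order, as did all marked protein-coding genes with 11875, 10345 and 11214. Pecam1, Lyve1, Cdh5 and Fcgr2b entered both the endothelial and the HF-only counts. The macrophage count was high in HF_1 alone. The part of these cells in the HF-only class was not tested.

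**Figure D3:**
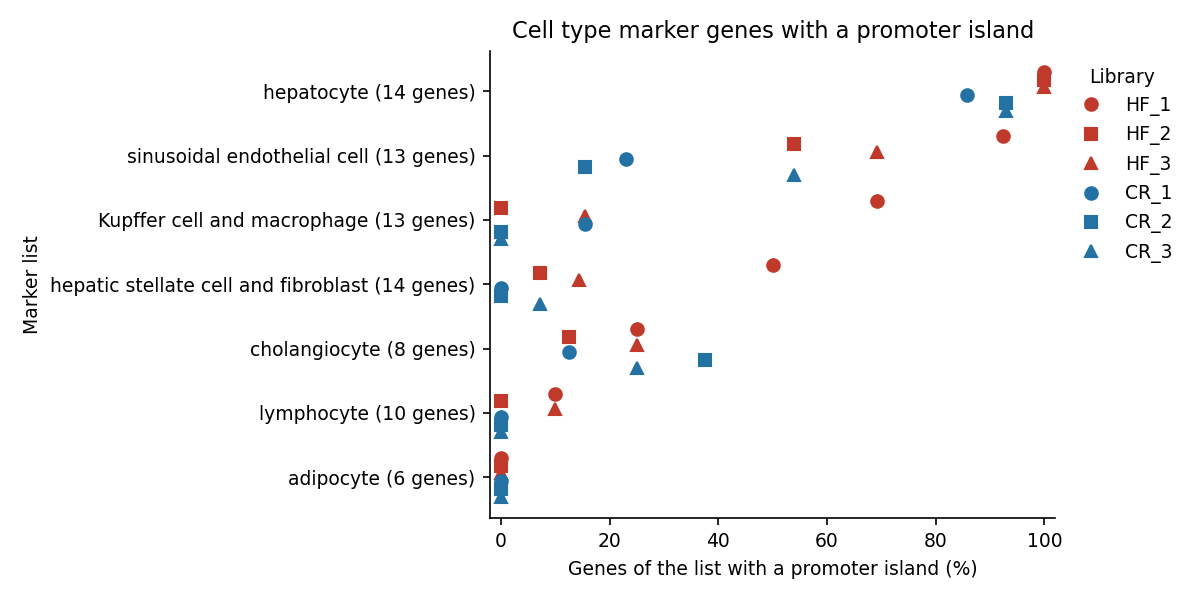
Percent of the genes of each marker list with a promoter island, for HF_1 to HF_3 (red) and CR_1 to CR_3 (blue). Hepatocyte markers lie between 12 and 14 of 14 genes in all 6 libraries, while endothelial markers range from 2 of 13 in CR_2 to 12 of 13 in HF_1 and adipocyte markers are at 0 throughout.

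At the 7041 shared promoters the comparison turned to the covered length, called width, and to how high the highest island score of the gene stood. Because scores are not scaled between libraries, each gene was given its rank among the shared promoters of the same library, from percentile 0, the lowest score, to 100. No gene passed limma with Benjamini-Hochberg adjustment at 0.05, for covered length (smallest adjusted p = 0.378) or for score rank (smallest adjusted p = 0.182). At an unadjusted p under 0.05, 259 genes (3.68%) were wider in HF and 142 (2.02%) in CR, and 220 (3.12%) ranked higher in HF and 236 (3.35%) in CR. In score rank, the 3 HF libraries all lay above the 3 CR libraries at 416 genes (5.91%) and all below at 452 (6.42%). In covered length relative to the library median the counts were 446 (6.33%) and 366 (5.20%), and in bp without centring 610 (8.66%) and 50 (0.710%). The names below are therefore values of single promoters that did not pass the test. Neither measure followed CpG content across genes (Spearman correlation 0.03 for the width difference and 0.0072 for the rank difference, over the same 7041 genes and 6 libraries, which are not independent replicates).

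Genes of the circadian clock lay apart between the diets in score rank at 7 of 14 shared clock promoters. The clock is a feedback loop in which CLOCK and BMAL1, the product of Arntl, activate the Per and Cry genes through E-boxes, and the Per and Cry proteins repress them. All 19 clock genes listed were marked in at least 1 library, and 14 in all 6. Of these 14, 6 ranked higher in every CR library than in any HF library, which is 42.9% against 6.42% of all genes tested, and 1 ranked higher in every HF library (7.14%, against 5.91%). The median difference over the 14, HF minus CR on the normal-score scale of the ranks, was -0.74, beside 0.02 over all 7041 genes. The list was written with earlier results of these data known.

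The 3 Per genes, repressors of the loop, ranked higher in every CR library than in any HF library, although no difference passed the test. Per3 (chr4:151042601-151046200) was at percentiles 3.56, 0.930 and 0.114 in HF_1 to HF_3 and at 54.2, 50.2 and 43.6 in CR_1 to CR_3, so that it was among the weakest shared promoters in every HF liver and near the middle in every CR liver. Its difference of -2.39 ± 0.39 (standard error, normal-score scale) had an adjusted p of 0.182 (limma). Per2 (chr1:91456201-91459600) was at 1.20, 0.128 and 22.3 in HF and at 24.1, 65.4 and 75.7 in CR (limma adjusted p = 0.697). Per1 (chr11:69094201-69100800) was at 75.6, 32.0 and 59.5 in HF and at 85.0, 92.7 and 89.9 in CR (limma adjusted p = 0.759). HF_3 and CR_1 came close at Per2, whereas the groups were clearly apart at Per3.

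Of the other clock genes, Dbp, Tef and Bhlhe41 lay on the same side as the Per genes, with smaller differences in mean percentile. Dbp, a PAR bZIP factor that drives rhythmic liver enzymes, was at 73.0, 86.1 and 85.6 in HF and at 98.7, 94.3 and 87.8 in CR. Tef, a related factor, was at 31.9, 13.3 and 14.8 in HF and at 42.8, 53.2 and 37.2 in CR. Bhlhe41, the repressor DEC2, was at 0.561, 0.312 and 3.42 in HF and at 13.0, 9.70 and 10.2 in CR, and had no island in any SD, YD or RD library. Arntl, the positive arm of the loop, was the one gene on the other side, at 17.1, 42.9 and 26.2 in HF and at 13.3, 1.73 and 7.63 in CR. Cry1, Cry2, Nr1d1, Rora, Hlf and Bhlhe40 overlapped between the diets. Nr1d1, which encodes the repressor REV-ERB-alpha, was high in all 6 libraries, between 68.5 and 96.4.

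Of the 5 clock genes without an island in every library, Ciart, a repressor of CLOCK and BMAL1 (chr3:95879801-95882800), had 2400, 2600 and 2200 bp in CR_1 to CR_3 against 1200 bp in HF_1 and none in HF_2 and HF_3. Npas2, a partner of BMAL1, had 2000, 2800 and 2200 bp in HF against 1600 bp in CR_2 alone. Clock and Nr1d2 lacked an island in CR_3 and Nfil3 in CR_1. In the SD livers Per3 stood at 12.6 in SD_1 and 0.603 in SD_2, and Per2 at 6.55 and 17.5, among the shared promoters marked there, and SD_3 had no island at either. Arntl was at 34.4 in SD_1 and 62.2 in SD_2. Per1 was at 42.4 in SD_1 alone, and Dbp at 79.0 in SD_1 and 38.3 in SD_2. Tef was at 44.9, 54.3 and 42.1 in SD_1 to SD_3, near its CR values. The hour at which the livers were collected is not given in the sources used here.

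**Figure D4:**
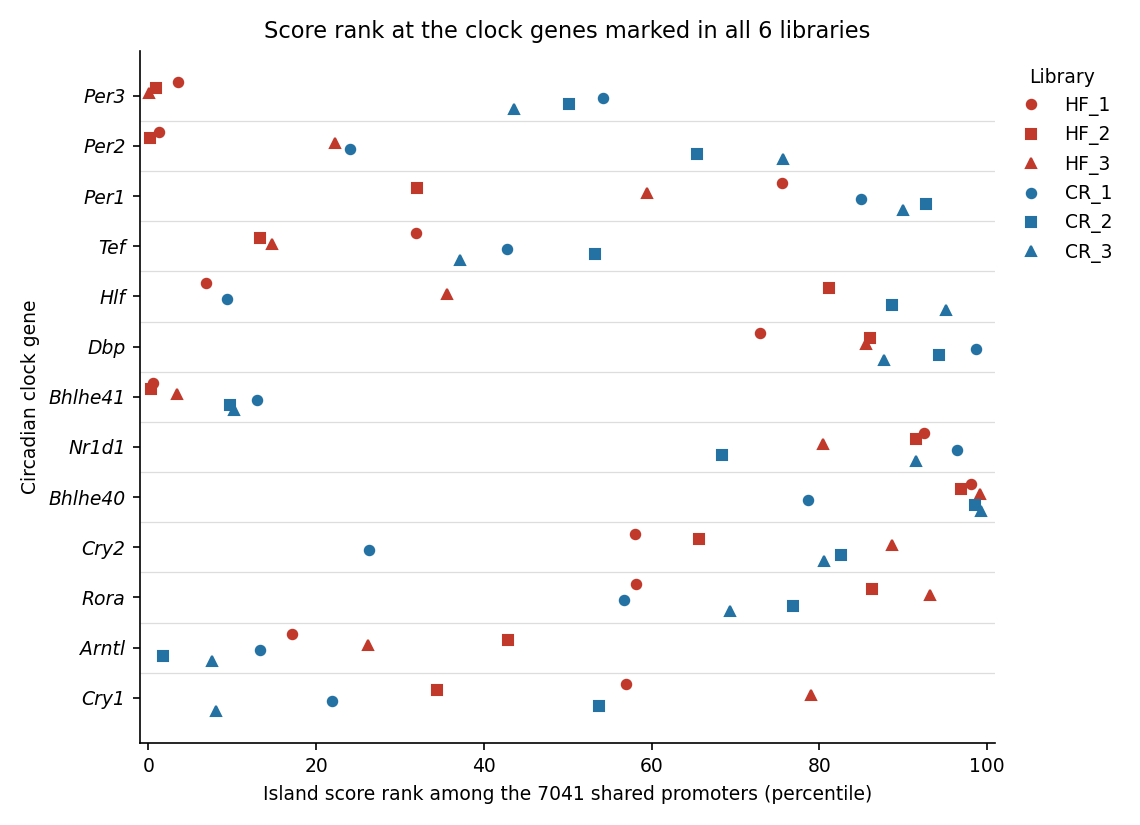
Score rank (percentile among the 7041 shared promoters of the same library, 100 the highest) of 13 of the 14 circadian clock genes marked in all 6 libraries, HF_1 to HF_3 in red and CR_1 to CR_3 in blue, ordered by the difference of the diet means. The blue points lie right of all red points at Per3, Per2, Per1, Tef, Dbp and Bhlhe41, and left of them at Arntl.

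The count of 6 clock genes rested on ranking among shared promoters. Ranked among all islands of each list, Dbp and Per3 alone kept the CR libraries above the HF libraries and no gene did the reverse, beside 2.24% and 4.83% of all genes. With the same number of highest-scoring islands from each list, 10 clock genes were shared and Dbp, Per1 and Tef were above in CR. Leaving out any 1 library gave 6 or 7 genes, which shows no stability, because a gene whose groups lie apart will as a rule stay apart when a library is omitted. Over all genes the share with every CR library above then rose from 6.42% to between 10.1% and 13.8%.

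The shared promoters with the smallest p for width are given first. B4gat1, a glucuronyltransferase that builds the sugar chain of dystroglycan, shared its island with AC124502.3 (chr19:5038001-5043200), so the genes cannot be separated. This promoter had 5200, 3800 and 5000 bp in HF and 1000, 1000 and 1800 bp in CR, and ranked at 84.6, 86.2 and 83.3 in HF against 6.52, 20.7 and 19 in CR. Its width was 3.26 times that in CR after centring (log2 difference 1.71 ± 0.29, standard error, limma adjusted p = 0.378). Kctd12, an auxiliary subunit of the GABA-B receptor (chr14:102979401-102983600), had 4200, 3600 and 3200 bp in HF and 800, 1200 and 600 bp in CR. Mtus1, a microtubule-associated protein gene (islands within chr8:41014601-41135600), had 11400, 9000 and 7200 bp in HF and 1400, 2000 and 3800 bp in CR, summed over that long region. Il3ra, the alpha chain of the interleukin-3 receptor, had 4800, 8800 and 6800 bp against 1600, 1200 and 1600 bp. The groups did not overlap at any of these 4 promoters.

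The 5 genes with the smallest p in the other direction differed less on the log2 scale than those 5. Tbk1, a kinase of innate immune signalling, had 3400, 2400 and 3400 bp in HF and 4600, 7000 and 7200 bp in CR (log2 difference -1.24 ± 0.26, limma adjusted p = 0.681). Msi2, an RNA-binding protein gene, had 2000, 1200 and 1000 bp against 2600, 2800 and 3000 bp. Akr1c13, an aldo-keto reductase, Gtf3c3, a subunit of TFIIIC, and Vps25, a subunit of ESCRT-II, had 600 to 1800 bp in HF and 1200 to 2800 bp in CR. At Gtf3c3 the uncentred lengths overlapped, with 1400 bp in HF_1 and 1200 bp in CR_1.

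In score rank, Il4i1, Nup62 and Atf5 share 1 island region (chr7:44812601-44820000) that ranked at 91.5, 90.3 and 94.9 in HF and at 43.0, 29.0 and 15.6 in CR (limma adjusted p = 0.182). Atf5 is a transcription factor of the integrated stress response, Nup62 a nuclear pore protein and Il4i1 an amino acid oxidase, and the files do not separate them. In SD_1 to SD_3 the region ranked at 84.5, 90.6 and 82.2, near the HF values. Id1, an inhibitor of basic helix-loop-helix factors (chr2:152735201-152740200), ranked at 30.7, 38.9 and 36.5 in HF and at 95.1, 92.1 and 94.3 in CR (limma adjusted p = 0.182), and at 96.2, 90.2 and 95.8 in SD, near the CR values. Neu2, a sialidase, and Ngef, a guanine nucleotide exchange factor, shared an island that ranked at 1.87, 2.22 and 6.29 in HF and at 37.5, 51.3 and 66.8 in CR. Aldh1a1, a retinaldehyde dehydrogenase (chr19:20600801-20609400), ranked at 18.5, 60.5 and 13.3 in HF and at 87.5, 98.4 and 98.8 in CR.

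**Figure D5:**
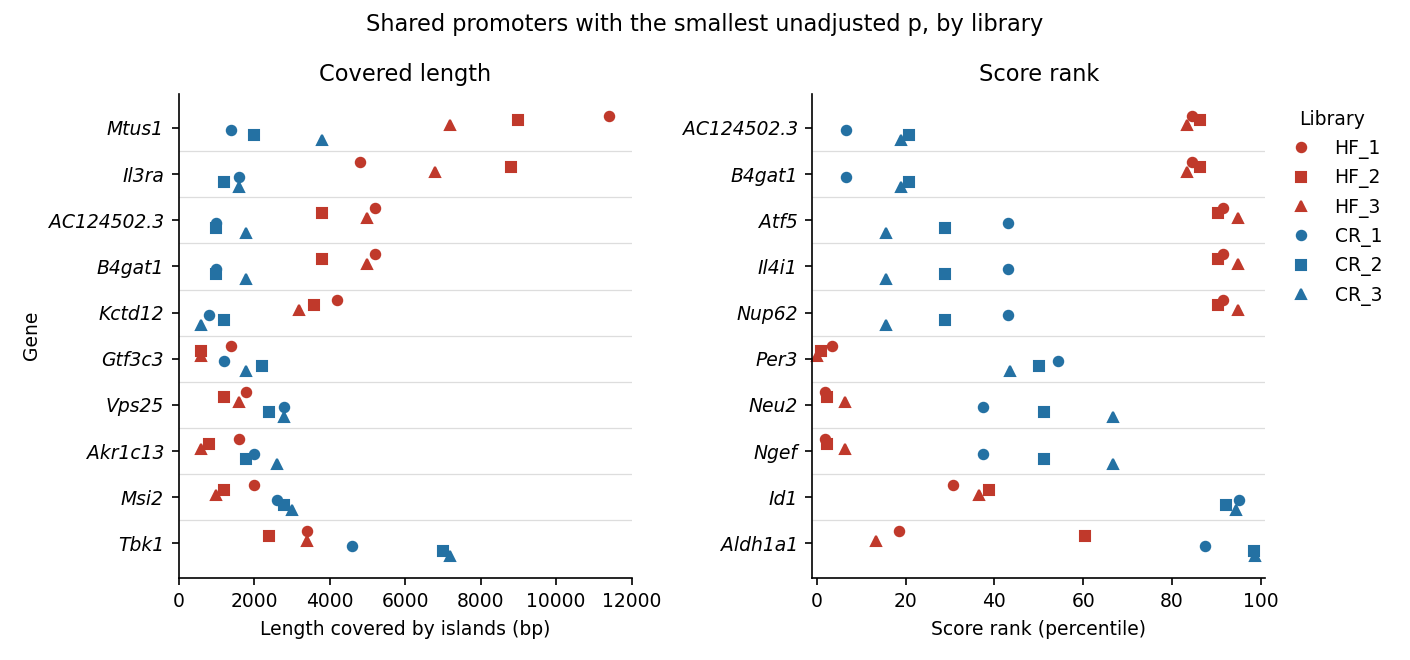
Length covered by islands in bp (left) and score rank in percentiles (right) at the shared promoters with the smallest unadjusted p in each direction, for HF_1 to HF_3 (red) and CR_1 to CR_3 (blue). B4gat1 and AC124502.3 share their island, as do Atf5, Il4i1 and Nup62, and Neu2 and Ngef, and none of these genes passed the adjusted threshold.

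Genes of fuel metabolism mostly overlapped between the diets. Of 23 shared genes of fatty acid oxidation and ketogenesis, 21 overlapped in score rank, none was higher in every HF library and Slc25a20 and Etfdh were higher in every CR library (8.70%, beside 6.42% of all genes), with a median difference of -0.20. This count was 7 of 23 without HF_2 (30.4%, beside 10.9% of all genes), with Ppara, Hadha, Hadhb and Ppargc1a among them, 5 of 30 without CR_1 (16.7%, beside 13.8%) and 4 of 23 without CR_2 (17.4%, beside 11.9%). Cpt1a, the carnitine acyltransferase that admits fatty acids to mitochondria, ranked at 90.0, 98.6 and 98.8 in HF and at 96.7, 95.7 and 88.2 in CR, near the top in every library. Slc25a20, its partner carnitine carrier, ranked at 14.8, 6.08 and 2.89 in HF and 63.2, 44.1 and 57.7 in CR (limma adjusted p = 0.451). Ppargc1a, the coactivator PGC-1-alpha, ranked at 9.79, 56.4 and 2.15 in HF and 31.8, 72.7 and 69.9 in CR, with HF_2 inside the CR range. Cyp4a14, an omega-hydroxylase, had 600 and 2600 bp in HF_1 and HF_2, none in HF_3, and 1400, 2600 and 3400 bp in CR. Fgf21, the fasting hormone, had an island in HF_3 alone, with 1200 bp.

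Of 21 shared genes of lipid synthesis and storage, Plin2 and Fitm2 ranked higher in every HF library (9.52%, beside 5.91% of all genes). None ranked higher in every CR library, although the median difference was -0.16. Without CR_1, 11 of 24 ranked higher in both remaining CR libraries (45.8%, beside 13.8% of all genes), with Fasn, Srebf1, Acaca, Acly and Gpam among them, and without HF_2 it was 3 of 21 (14.3%, beside 10.9%). Plin2, a coat protein of lipid droplets, ranked at 82.5, 97.8 and 83.4 in HF and at 74.1, 68.4 and 78.7 in CR, and covered 3800, 6800 and 4200 bp against 1600, 2800 and 2200 bp (limma adjusted p = 0.793 for rank and 0.825 for width). Fasn, fatty acid synthase, and Srebf1, its activator, overlapped in rank, at 66.6, 76.4 and 83.1 against 63.7, 94.6 and 90.0 for Fasn. Srebf1 covered 8200, 6200 and 9000 bp in HF and 2200, 4600 and 6200 bp in CR, so HF_2 and CR_3 met at 6200 bp. Pparg, the adipogenic nuclear receptor, covered 2000, 1600 and 1600 bp in HF and 1400, 1400 and 1000 bp in CR. Relative to the library medians the Pparg lengths overlapped between the diets (limma adjusted p = 0.927 for width). Scd1, the stearoyl-CoA desaturase, had 2200, 0 and 3600 bp in HF and 0, 2400 and 4200 bp in CR. Cd36, a fatty acid transporter, had 3600 bp in HF_1 alone and 1000 and 1400 bp in CR_2 and CR_3. Cidea and Cidec, lipid droplet proteins that are induced in fatty liver, had no island in any of the 6 libraries.

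Cholesterol synthesis was divided. Of 18 shared genes, 2 ranked higher in every HF library, Hmgcs1 and Abca1 (11.1%, beside 5.91% of all genes). Another 2 ranked higher in every CR library, Pmvk among them (11.1%, beside 6.42%), and the median difference was -0.46. Pmvk, phosphomevalonate kinase, ranked at 0.731, 1.88 and 2.22 in HF and 8.47, 33.6 and 49 in CR (limma adjusted p = 0.642). Hmgcs1, a synthase of the mevalonate pathway, ranked at 86.4, 92.5 and 88.2 in HF and 62.9, 10.9 and 84.5 in CR, and Abca1, the cholesterol exporter, at 81.6, 93.0 and 81.9 against 42.8, 45.6 and 63.2. Without CR_1, 24 genes were shared and 10 of them ranked higher in every remaining CR library (41.7%, beside 13.8% of all genes), and without HF_3 it was 4 of 18 (22.2%, beside 10.1%).

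Of 11 shared bile acid genes, Nr0b2 and Hsd3b7 ranked higher in every HF library (18.2%, beside 5.91% of all genes) and none in every CR library, although the median difference was -0.33. Without CR_1, 3 of 14 ranked higher in both remaining CR libraries (21.4%, beside 13.8% of all genes). Nr0b2, the repressor SHP that is induced by bile acids (chr4:133553201-133557400), ranked at 77.4, 79.0 and 79.3 in HF and 19.5, 1.73 and 37.8 in CR (limma adjusted p = 0.51), and at 86.9, 83.3 and 95.1 in SD. Cyp7a1, the rate-limiting enzyme of bile acid synthesis that SHP represses, had 600 bp in HF_1 and none in HF_2 and HF_3, and 0, 3000 and 4400 bp in CR. At Cyp7a1 CR_1 was without an island, like HF_2 and HF_3.

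Of 14 shared genes of insulin and growth hormone signalling, Pik3r1, Socs2 and Ptpn1 ranked higher in every HF library (21.4%, beside 5.91% of all genes). Irs1 and Igfbp2 ranked higher in every CR library (14.3%, beside 6.42%), and the median difference was 0.37. The count with every HF library above was 6 of 17 without CR_1 (35.3%, beside 12.3% of all genes) and 5 of 14 without HF_2 or without CR_2 (35.7%, beside 10.1% and 11.2%). Irs1, an insulin receptor substrate (chr1:82283201-82292600), ranked at 8.09, 47.4 and 13.2 in HF and 58.3, 97.3 and 97.0 in CR (limma adjusted p = 0.51). Igfbp2, an IGF-binding protein that rises in fasting, ranked at 0.511, 5.52 and 1.01 in HF and 37.2, 31.8 and 36.9 in CR (limma adjusted p = 0.291), with 32.2, 85.0 and 19.2 in SD. Socs2, the feedback inhibitor of growth hormone signalling, ranked at 76.5, 71.6 and 72.3 in HF and 8.22, 70.7 and 10.4 in CR. Igfbp1 had 2200, 1800 and 2600 bp in HF and 0, 0 and 2600 bp in CR, and Pck1, the gluconeogenic carboxykinase, 2400, 3000 and 5000 bp in HF and 0, 2400 and 3800 bp in CR.

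In each of the remaining lists no more than 2 genes lay apart in either direction. Over all genes, every HF library was above at 5.91% and every CR library at 6.42%. Of 15 shared genes of glucose metabolism, Gpi1 and Tkfc ranked higher in every CR library (13.3%) and none in every HF library. Of 20 of nutrient sensing, Sirt7 and Mtor ranked higher in every HF library (10%). Of 10 of xenobiotic metabolism, Cyp2c29 and Nr1i2 ranked higher in every CR library (20%). Of 12 shared hepatocyte markers, Apob and Arg1 ranked higher in every CR library (16.7%). Apob is the protein of very low-density lipoproteins and Arg1 the arginase of the urea cycle. These shares lay above those of all genes but rest on 2 genes each. Of 15 genes of endoplasmic reticulum stress and 5 of inflammation, none was apart in either direction. Of the 17 H3K4 methylation enzymes, 16 overlapped and Dpy30 ranked higher in every HF library (5.88%). Genes of the metabolic, hepatocyte and enzyme lists given with ranks, other than those chosen by role, were named after their values were seen. Single libraries moved these counts too. With every CR library above there were 10 of 23 glucose genes without CR_1 (43.5%) and 5 of 16 without HF_2 (31.2%). Of xenobiotic genes there were 6 of 10 without CR_2, 4 of 10 without HF_2 and 4 of 11 without CR_1. Of hepatocyte markers there were 5 of 12 without HF_1 (41.7%). Over all genes this share was 13.8% without CR_1, 10.9% without HF_2, 11.9% without CR_2 and 11.0% without HF_1. With every HF library above there were 5 of 21 nutrient sensing genes without CR_1, 4 of 15 endoplasmic reticulum stress genes without HF_2 or without CR_3, and 4 of 17 H3K4 methylation enzymes without CR_1. Over all genes that share was 12.3% without CR_1, 10.1% without HF_2 and 11.2% without CR_3. Median differences of these remaining lists ran from -0.43 in xenobiotic metabolism to 0.21 in nutrient sensing and inflammation, beside 0.02 over all genes tested.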

How the data were processed

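H3K4me3 islands were taken from the lists the authors deposited, 1 per library and animal with no pooling. Per the methods, single reads of 50 bp were aligned to mm10 with bwa, reads with a MAPQ under 1 and duplicates were removed, and islands were called with SICER2 (fragment 200 bp, window 200 bp, gap 400 bp, FDR under 0.05). Tool versions are not given in the sources used here. The authors deposited a score per island, the summed negative natural log of the Poisson probabilities of its enriched windows, which is not scaled between libraries and was used only for ranks within a list. The number of reads of each library was worked out from the steps between single-window scores, taking an effective genome fraction of 0.74. The depth behind a single island is unknown, so errors are those between animals.

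TSSs were those of GENCODE M21 on chromosomes 1 to 19 and X. Differences per library were tested by exact permutation over all 20 arrangements of the 6 libraries. Covered length was summed over all islands within 1 kb of any TSS of the gene. Width (log2 covered length, centred on the library median) and score rank (normal scores) were fitted with limma over the 6 libraries and all 7041 shared genes, with Benjamini-Hochberg adjustment. Calculations used Python 3.11.15, numpy 2.4.6, pandas 2.3.3, scipy 1.17.1, matplotlib 3.10.9, R 4.3.3 and limma 3.58.1, and were tested on simulated data.

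Named genes were the 10 strict one-diet genes with the largest mean covered length in each direction, list genes in a one-diet class, the 5 shared genes with the smallest p in each direction for width and rank, and 14 genes chosen by role. Predicted and receptor genes were not named, and a few other genes are not reported here. The classes and the 12 pathway and 7 marker lists were chosen with earlier results of these data known. The alternatives were each library left out, the form of name, a replicate block, the same number of islands (13499), islands at or above the median score, 3 kb or 0 kb from the TSS, all genes, other class rules, no centring, the widest island, 5 of 6 libraries, merged regions and ranks among all islands. Expression, body weight and read coverage were not used here.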

Additional observations from a re-analysis of the deposited data

How the results depend on the processing

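Fewer islands in HF than in CR was not a stable direction, with +320 without HF_3, +4109.83 without CR_3 and +2818 within the PATChIP form, and -5543.17 to 4109.83 over the 6 omissions of a library. The shares of islands at promoters and of genes marked, and the median width, kept their direction under all alternatives run, from 2.76 to 20.4 points, 3.88 to 10.3 points and 167 to 667 bp over the omissions. HF-only genes numbered 217 to 1088 over the omissions, 286 at or above the median score, 205 by 3 of 3 against 0 and 1486 by at least 2 against at most 1. CR-only genes numbered 2 to 130 over the omissions, 84 at or above the median score, 67 at 3 kb, 112 over all annotated genes, 2 by 3 of 3, 169 by at most 1 and 27 within the PATChIP form, which was added after seeing the data. Of the reported one-diet genes, 422 HF-only and 19 CR-only genes remained with the same number of islands per list, and 63 and 5 at or above the median score. The causes were not tested.

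Limma called 0 genes for width and for rank in each of the 17 width and 16 rank settings, with smallest adjusted p between 0.107 and 0.929 for width and between 0.0923 and 0.762 for rank. Without centring, 492 genes were wider in HF and 20 in CR at an unadjusted p under 0.05, since the median difference was then 0.24 (log2). The clock genes with every CR library above numbered 6 or 7 over the omissions, which loosen that rule (10.1% to 13.8% of all genes, against 6.42%), 3 with the same number of islands and at or above the median score, and 2 with ranks among all islands and with a TSS inside the island. Those with every HF library above numbered 1 or 2 over the omissions, 2 within the PATChIP form and 0 under the median score, all islands and TSS inside settings.

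Single genes changed the sign of their rank difference where it was near 0. Srebf1 was at 0.00626 with ranks among all islands, at 0.0109 with an island in 5 of 6 libraries and between -0.48 and 0.18 over the omissions. Over the same omissions Cry2 ran from -0.27 to 0.49, Nr1d1 from -0.36 to 0.28, Bhlhe40 from -0.22 to 0.61 and Gata4 from -0.14 to 0.67.

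The replicate block gave 0 calls (smallest adjusted p 0.728 for width and 0.429 for rank) and permutation p of 1 for islands, 0.75 for promoter share, 0.25 for genes marked and 0.75 for width, and changed no call. For 3 same-numbered pairs 0.25 is the smallest p that the block permutation can give, and genes marked stood at it. Deviations of width from the diet means correlated at 0.01, -0.06 and -0.10 between same-numbered libraries, and at -0.04 to 0.09 between the others. No pairing by number was seen, but with 3 libraries per diet these values cannot exclude one. The promoter share over all annotated genes is the reported value, and it was instead repeated with TSSs of protein-coding genes alone (11.8 points).

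With 3 livers per diet no permutation p can fall below 0.1. The 5589269 reads of CR_1 and the 33752 islands of CR_3 limit what absence of an island can show, since an island is absent when it misses the caller's threshold and not only when the mark is absent. Height at an island was not measured, and ranks within a list move when other promoters of that list move.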

Other observations

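Some shared promoters outside the fixed rules, chosen after their values were seen, had a larger covered length or a higher rank in one diet. Gata4, a transcription factor that liver endothelial cells and early hepatic progenitors use, covered 10400, 5800 and 12400 bp in HF_1 to HF_3 and 3200 bp in each CR library (limma adjusted p = 0.681 for width), while its score rank overlapped. The Gata4 lengths are sums over islands within chr14:63241201-63272000. Insr, the insulin receptor, covered 4200, 4000 and 4000 bp in HF and 800, 2800 and 3400 bp in CR. Tfeb, a regulator of lysosome genes, covered 4000, 2200 and 2800 bp in HF and 1800, 1400 and 1000 bp in CR, and had no island in the SD livers. None of these passed the adjusted threshold.

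On the CR side, Sod1, the cytosolic superoxide dismutase, ranked at 48.4, 75.3 and 48.5 in HF and 97.6, 93.4 and 94.2 in CR, and Ces1c, a plasma carboxylesterase, at 20.4, 17.4 and 30.3 in HF and 71.5, 85.0 and 73.7 in CR (limma adjusted p = 0.51 for Sod1 and 0.451 for Ces1c). The SD livers stood at 88.5, 69.5 and 77.1 for Sod1 and at 80.9, 19.7 and 30.3 for Ces1c.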
